A study of Oryza sativa with 4 samples.

Results

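The subject is RBOHB (LOC4326027), a rice gene for an NADPH oxidase of the RBOH family, measured in leaves under 30% CO2. Members were taken by name: a gene belonged to the family if its symbol or a synonym, without any Os prefix, was RBOH followed by a single letter. Of 17905 genes that had a probe set of their own on the array, 1 met this rule, with 1 of the 57194 probe sets. Other rice NADPH oxidases carry no such name in the tables used and were not analysed here, so nothing below describes the family as a whole.

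Leaves came from rice of the cultivar Senia at the V2 stage, the second vegetative stage, grown with 16 h of light and 8 h of dark per day. The treated group was kept in sealed bags with CO2 injected to 30%, and the control group in normal atmosphere labelled 0.04% CO2; both stood for 6 h in the dark at 27 °C. Each group had 2 biological replicates, and each replicate was a pool of leaves from 10 plants, so differences between single plants are averaged out. No genetic change was made in either group. Whether controls were bagged and how much oxygen the bags held are not given in the sources used here, so CO2 and enclosure cannot be told apart.

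RBOH stands for respiratory burst oxidase homolog. These enzymes sit in the plasma membrane and pass electrons from NADPH inside the cell to oxygen outside it, which makes superoxide that turns into hydrogen peroxide. Calcium binding to their EF-hands, phosphorylation by calcium-dependent kinases and small GTPases of the RAC/ROP family switch them on, and in plants they are known for the oxidative burst of immunity, for stomatal closure and for responses to low oxygen. Rice RBOHB is known for the binding of RAC GTPases to its N-terminal part.

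Over the whole table, the median log2 signal of the 4 samples lay between 3.85 and 3.92. In limma's test with Benjamini-Hochberg adjustment, 11.5% of all probe sets passed an adjusted p of 0.05, 6.78% lower and 4.73% higher under CO2. Along the first principal component (81.4% of the variance) CO2 replicate 1 lay at -98.7 and CO2 replicate 2 at -62.7, against 78.0 and 83.3 for the controls. As a check of tissue, the 13 matched genes of chloroplast function had mean log2 signals of 10.58 and 10.36 in controls and 9.73 and 9.77 under CO2. Their median log2 change was -0.39, with members from -3.62 (PORA, which did not pass) to 1.06 (PSB28). The means therefore do not show a fall common to all of them. The 8 matched root genes averaged 4.59 to 4.62 in every sample, an average over members that went both ways (IRT1 fell by 2.47 and IRT2 rose by 3.03 on the log2 scale), so it does not show that their levels were steady.

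RBOHB was bright in control leaves and fell under 30% CO2. Its log2 signal was 11.06 in control replicate 1 and 11.36 in control replicate 2. Under CO2 it was 8.17 in replicate 1 and 9.32 in replicate 2. Both CO2 samples lay below both controls, with 1.74 log2 units between the lower control and the higher CO2 sample. The same order held in 26% of all probe sets, and in 7123 of 17905 genes with 1 probe set each. Group means were 11.21 ± 0.21 in controls (SD, n = 2) and 8.74 ± 0.82 under CO2 (n = 2). The log2 change was -2.46 ± 0.40 (SE), with a 95% interval of -3.50 to -1.43 and an adjusted p of 0.0254 in limma's test over all probe sets. That is a signal 5.52-fold lower (95% interval 2.69 to 11.3), or 18.1% of the control level.

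**Figure D1:**
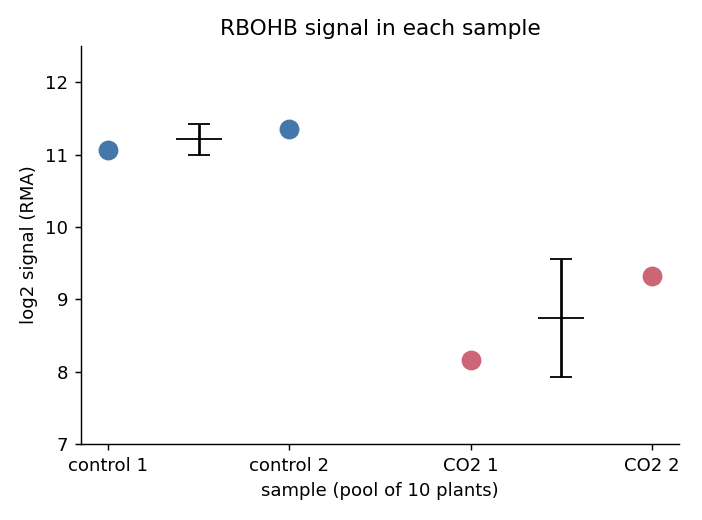
Log2 signal of RBOHB (y axis, which does not start at 0) in each of the 4 samples (x axis); points are samples, and the black marks give each group's mean and SD (n = 2). Controls sit at 11.06 and 11.36, above the CO2 samples at 8.17 and 9.32.

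The RBOHB probe set was among the brighter ones throughout, although signals of different probe sets do not give ratios of transcripts. It stood at the 98.6th and 98.9th percentile of all probe sets in the controls, and at the 86.9th and 93.3rd percentile in CO2 replicates 1 and 2. The signal was thus far from the dim end of the scale in every sample. A log2 change of -2.46 or lower was seen in 227 of 57194 probe sets (0.397%), of which 215 passed the threshold. Counted with 1 probe set per gene, 143 of 17905 genes (0.799%) changed as far downward.

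The CO2 samples differed from each other. Between them RBOHB varied by 1.16 log2 units, a wider gap than at 98.5% of all probe sets, and between the controls by 0.30. Set against single controls, CO2 replicate 1 was 7.42-fold and 9.15-fold lower, and CO2 replicate 2 was 3.33-fold and 4.11-fold lower. Replicate 1 was also the lower CO2 sample at 2544 of the 3877 probe sets that fell (65.6%). RBOHB therefore shared the order of the CO2 samples with most of these probe sets; the part of this in the result was not tested.

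Leaving out any 1 sample could not reverse the direction, as both CO2 samples lay below both controls, and the call did not always hold. The log2 change was -1.89 without CO2 replicate 1 (adjusted p = 0.0812, limma), -2.62 without control replicate 1 (adjusted p = 0.236) and -2.31 without control replicate 2 (adjusted p = 0.280). In these 3 fits limma passed 0 of all 57194 probe sets, while 11506, 9691 and 9246 had an unadjusted p under 0.05, among them RBOHB at 0.0027, 0.0276 and 0.0373. Without CO2 replicate 2 the log2 change was -3.04 (adjusted p = 0.0455). An exact permutation of 2 against 2 samples cannot give a two-sided p below 0.333 and was not used.

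**Figure D2:**
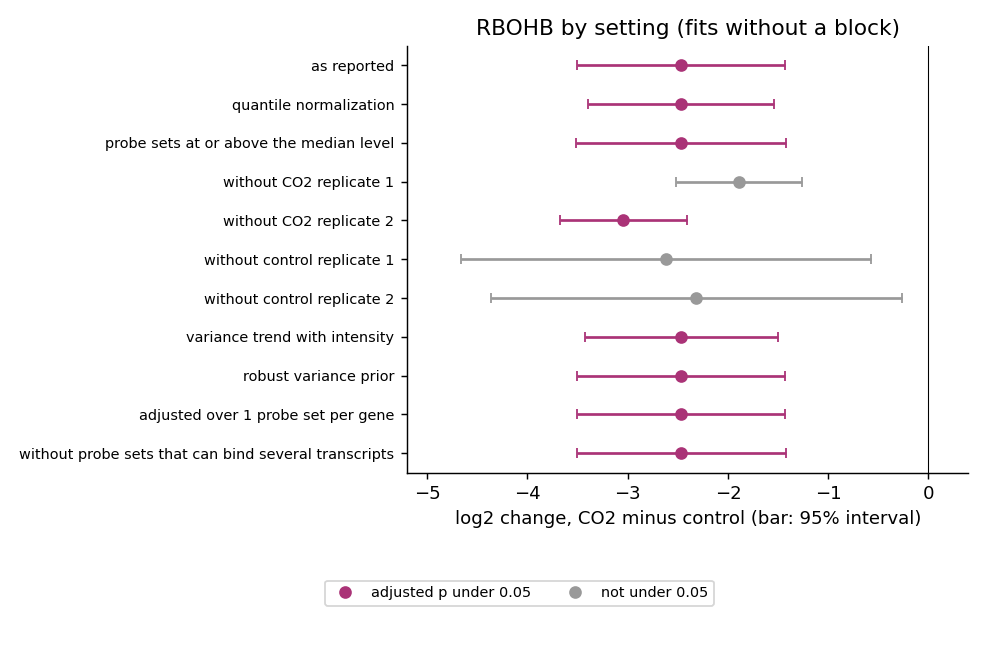
Log2 change of RBOHB, CO2 minus control (x axis), with its 95% interval, as reported and under 10 of 12 alternatives (y axis; the 2 fits with a block, in which the adjusted p also exceeds 0.05, are not drawn); purple marks an adjusted p under 0.05 and grey one that is not. Every drawn estimate lies between -3.04 and -1.89 and every drawn interval below 0, while among the drawn fits the adjusted p exceeds 0.05 without CO2 replicate 1, control replicate 1 or control replicate 2.

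The GTPases that work with the oxidase went both ways. In the list of RAC/ROP GTPases and partners 1 of 8 genes fell, 2 rose and 5 did not pass, with a median log2 change of 0.01, where 22.4% of all genes passed (13.5% fell and 8.93% rose) and the median was -0.08. RAC1 (LOC4325879), the GTPase known to activate the oxidative burst in rice immunity, fell as RBOHB did. It read 7.12 and 6.45 in control replicates 1 and 2, and 4.17 and 4.80 under CO2. The groups did not overlap, with both CO2 samples below both controls, as in 7123 of all 17905 genes. The log2 change was -2.30 ± 0.32 (SE, adjusted p = 0.0174, limma), or 4.91-fold lower.

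RAC2 (LOC4339304) and RAC3 (LOC4330693), GTPases of the same family, went the other way. RAC2 rose from 4.76 and 3.70 in controls to 7.76 and 7.09 under CO2, a log2 change of 3.20 ± 0.42 (adjusted p = 0.0154, limma). The other probe set of RAC2 gave 0.23 (adjusted p = 0.393, limma), so the rise of RAC2 rests on 1 of its 2 probe sets. That other set read 2.21 to 2.59 over the 4 samples, a level not shown to be above background, so it cannot speak for or against the rise. RAC3 rose from 8.87 and 8.32 to 9.62 and 9.85, a log2 change of 1.14 ± 0.22 (adjusted p = 0.0412). RACK1A, a scaffold protein known to bind rice RBOH proteins and named here after its values were seen, stood at -0.40 (adjusted p = 0.215).

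None of the 5 listed immune receptors and kinases upstream of the burst passed, and their median log2 change was -0.32. CEBIP, the receptor that binds chitin at the cell surface, was closest, with 9.03 and 9.26 in controls and 7.94 and 6.79 in CO2 replicates 1 and 2. Its log2 change of -1.78 ± 0.39 had an adjusted p of 0.0546 in limma's test, and the lower CO2 sample was replicate 2, the opposite of RBOHB. With p-values adjusted over 1 probe set per gene it passed (adjusted p = 0.0282). RLK10 (LOC9270778), a receptor-like kinase gene whose record also carries the name CERK1, stood at -0.32 (adjusted p = 0.205). The other gene with that name, LOC4346173, known as the co-receptor for chitin and named here after its values were seen, stood at 0.20 (adjusted p = 0.382).

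Calcium-dependent protein kinases, the family that phosphorylates RBOH proteins, were called about as often as genes at large. Among 20 genes, 3 were called higher and 1 lower, beside 22.4% of all genes called (8.93% higher and 13.5% lower), and the median log2 change was 0.01. CPK18 (LOC4343002) fell from 7.35 and 7.21 in controls to 4.77 and 5.59 under CO2, a log2 change of -2.10 ± 0.29 (adjusted p = 0.0172, limma). That probe set is of a kind open to cross-hybridisation with other transcripts (a name ending in _s_at or _x_at). The other one of the gene, which read 2.94 to 3.85 over the 4 samples, gave -0.66 (adjusted p = 0.0753, limma).

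CPK13 (LOC4336783) rose by 1.09 on the log2 scale, from 10.13 and 10.15 to 11.42 and 11.03, and its second probe set rose by 1.63. CPK21 rose by 1.25 from 2.56 in both controls, a level not shown to be above background, to 4.09 and 3.52 under CO2. CPK5 rose by 0.61, on another such cross-hybridising set, and did not pass with a variance trend (adjusted p = 0.0746, limma). In these kinases the CO2 and control samples did not overlap. Over all 17905 genes, both CO2 samples lay below both controls in 7123 and above both in 4960.

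**Figure D3:**
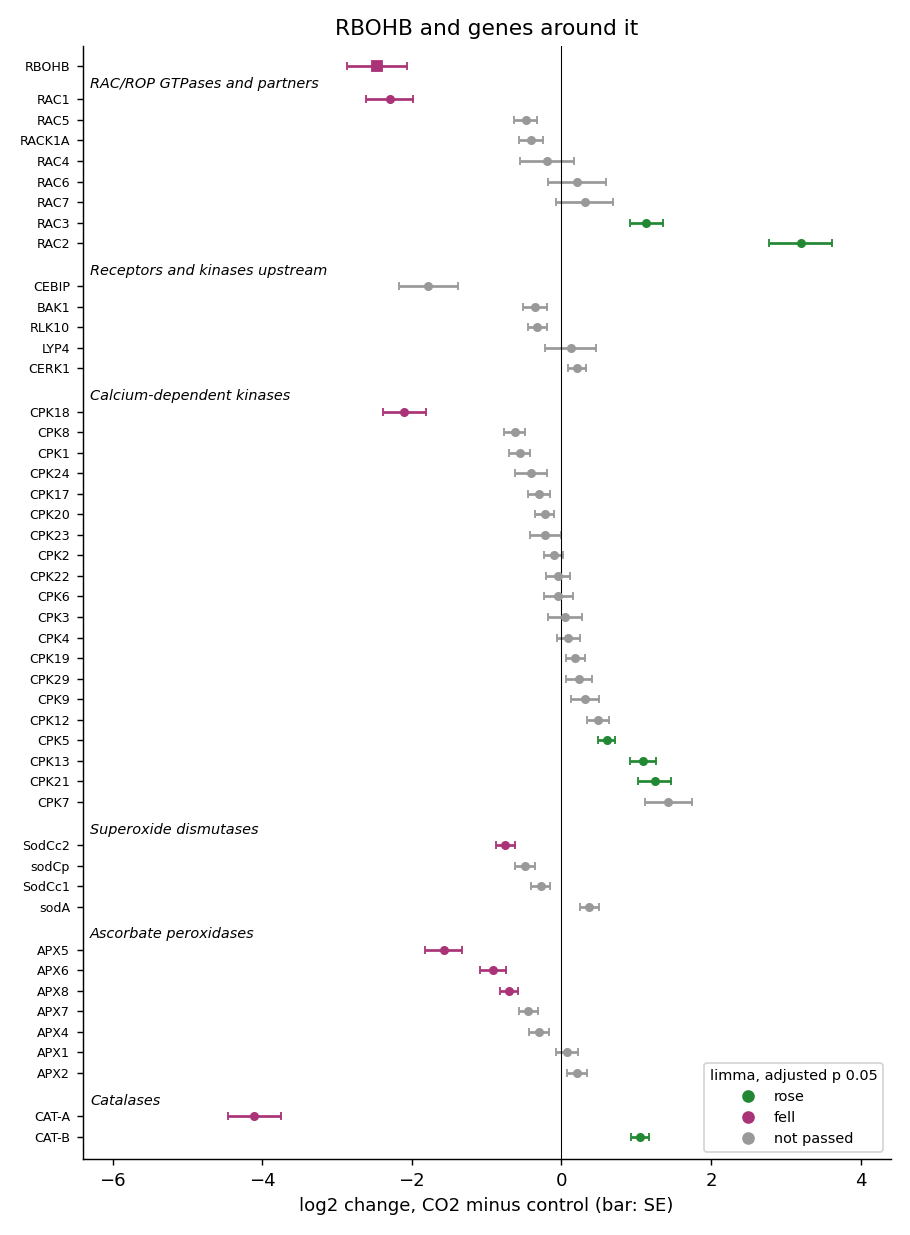
Log2 change, CO2 minus control (x axis), of RBOHB (square) and of 46 genes in 6 lists (circles, y axis), with limma's SE; green rose, purple fell and grey did not pass an adjusted p of 0.05. RBOHB at -2.46 and RAC1 at -2.30 lie left of all members that did not pass, while RAC2 at 3.20 lies furthest to the right.

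Among genes for enzymes that remove superoxide and hydrogen peroxide, the products of the oxidase, 5 of 13 fell, 1 rose and 7 did not pass (median log2 change -0.44). Over all genes 13.5% fell and 8.93% rose, with a median of -0.08, and with so few genes the sub-counts below are no more than descriptions. Of 4 superoxide dismutase genes, which turn superoxide into hydrogen peroxide, 1 fell and 3 did not pass (median -0.38). SodCc2, for a copper-zinc form, fell from 11.59 and 11.56 to 10.92 and 10.74, a log2 change of -0.75 ± 0.13 (adjusted p = 0.0293, limma). Of 7 ascorbate peroxidase genes, which remove hydrogen peroxide with ascorbate, 3 fell and 4 did not pass (median -0.44).

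APX5 fell from 5.50 and 4.99 to 3.44 and 3.91 (log2 change -1.57), APX6 fell from 7.25 and 7.19 to 6.09 and 6.52 (-0.91), and APX8, a chloroplast form, fell from 11.39 and 11.42 to 10.76 and 10.66 (-0.70). APX6 did not pass with a variance trend (adjusted p = 0.0549, limma). Only 2 catalase genes were matched by name, so others may be missing here. Of these CAT-A fell by 4.11 and CAT-B rose by 1.05, each on a set open to cross-hybridisation. On sets without that limit the changes were -4.87 and 0.98, and both passed. Among the 7 genes of the lists that fell, 5 had CO2 replicate 1 as the lower sample, as RBOHB did, and SodCc2 and APX8 did not.

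Across all 46 genes of these lists 6 rose, 7 fell and 33 did not pass, with a median log2 change of -0.14. This is near the 22.4% called over all genes (13.5% fell and 8.93% rose), so the count is not a result about these lists. In the fits without CO2 replicate 1, control replicate 1 or control replicate 2, 0 of the 46 passed in limma's test, with 18, 15 and 17 at an unadjusted p under 0.05. Without CO2 replicate 2, 4 passed. No gene carried the name of a ferric reductase oxidase, a relative of RBOH proteins, in the tables used.

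The 5 named genes whose pattern was nearest to that of RBOHB were found by the root mean square difference between the 4 log2 values, each taken relative to the gene's own control mean, among 2446 other named genes. FLO6, known for a starch-binding protein of the endosperm, was nearest at 0.09, with 9.11 and 9.49 in controls and 6.31 and 7.25 in CO2 replicates 1 and 2. CAD8C, of the cinnamyl alcohol dehydrogenase family of lignin synthesis, followed at 0.18 and read 9.84 and 9.96, then 6.95 and 7.68. OsCASPL1B1, for a membrane protein like those of the Casparian strip, was at 0.20, CKS1, for a subunit of cell cycle kinases, at 0.26, and ATCase, for the aspartate carbamoyltransferase of pyrimidine synthesis, at 0.27.

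Their log2 changes lay between -2.59 and -2.16, and in each of them CO2 replicate 1 was lower than CO2 replicate 2. As they were chosen for likeness over only 4 samples, this is a description with no test. The second probe set of CAD8C gave -0.30 (adjusted p = 0.358, limma) but read only 2.63 to 3.19 over the 4 samples, a level not shown to be above background.

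**Figure D4:**
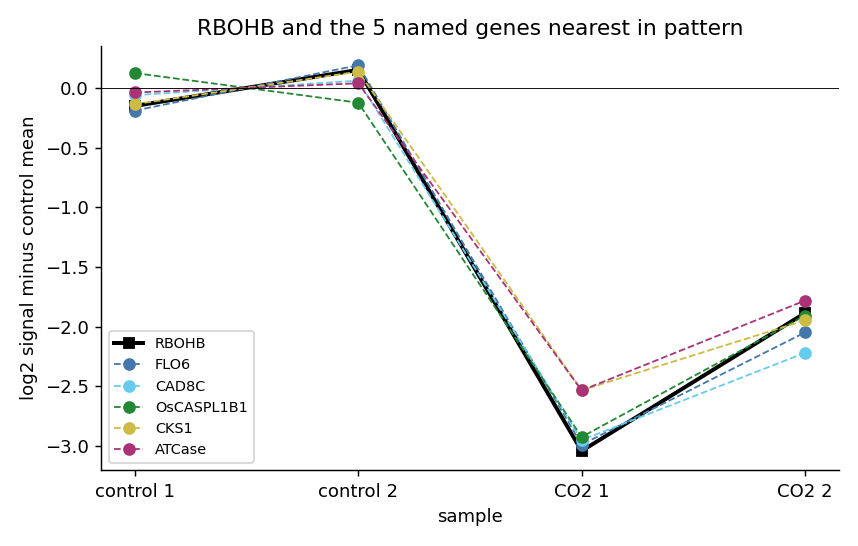
Log2 signal minus the gene's control mean (y axis) in the 4 samples (x axis) for RBOHB (black squares) and its 5 nearest named genes (circles); lines only join the points of a gene, since replicates have no order. In all 6 genes CO2 replicate 1 is the lowest sample.

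Genes beside RBOHB on its chromosome were looked at as well. Among the 5 protein-coding genes on either side in the gene table, 5 of 10 had a probe set named to them. Of these 1 fell and 4 did not pass, near the 22.4% called over all genes. The nearest measured gene on either side, LOC4326028, which adjoins RBOHB, and LOC4326026 stood at -0.23 (adjusted p = 0.571, limma) and -0.07 (adjusted p = 0.876). The probe set used for LOC4326026 read only 2.63 to 3.10 over the 4 samples, a level not shown to be above background. LOC4326024, 4 genes away, fell by 1.49 (adjusted p = 0.0100). Nothing is said here of what these genes encode, as the tables give them no name.

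In leaves taken whole, fewer cells of a type and less RNA per cell cannot be told apart. Beside 13.5% of all genes that fell and 8.93% that rose, 4 of 13 chloroplast genes fell and 1 rose. In 10 of the 13 both CO2 samples lay below both controls, a larger share than the 7123 of all 17905 genes where they did. Among these 10 the log2 changes ran from -3.62 (PORA) to -0.01 (RBCS). The phloem list of sucrose transporters and sucrose synthases averaged 7.78 and 7.76 in controls and 8.01 and 8.03 under CO2. Of its 10 genes 3 were higher and 1 lower, with log2 changes from -1.44 to 1.57. Dividing-cell genes averaged 4.68 and 4.16 in controls and 4.64 and 4.30 under CO2, with 1 of 9 lower. Of the 8 root genes 1 rose and 2 fell, and RTS, a gene known from anthers and the only match of the pollen list, lay between 2.54 and 2.95. The guard cell list matched no gene, so guard cells, where RBOH proteins act in closure, could not be followed. The table gives no detection calls, and the part of any of these cell types in the result was not tested.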

How the data were processed

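Total RNA of rice leaves, with integrity numbers above 8, was labelled with biotin and hybridised to Affymetrix rice arrays, 1 per sample, per the labels' protocols. The authors deposited log2 signals per probe set; the submitters' processing notes name RMA and limma, without versions, and a genome build is not given in the sources used here. No rescaling was applied.

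Names could be given to 22436 probe sets with 1 gene; 95 with several genes and 34663 others are unnamed here. They came from the array annotation, updated through a rice gene table (assembly ASM3414082v1, used for names and gene order only). The groups were compared by limma 3.58.1 under R 4.3.3 (lmFit, eBayes, two-sided, no block, no filter), Benjamini-Hochberg adjusted over all 57194 probe sets, at 0.05, with 2 residual and 2.85 prior degrees of freedom. For each listed gene the brightest probe set on average was used. The labels call the replicates biological.

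RBOHB and the lists were chosen with earlier results of these data known. Lists were patterns on names; 4 actin genes that match the RAC pattern were left out. All family members were named, up to 4 genes past the threshold per list (or the 2 with the smallest p), and the 5 nearest in pattern. Alternatives were quantile normalization, a filter on dim probe sets, a replicate block, leaving out each sample, a variance trend, a robust prior, adjustment over 1 probe set per gene, means of probe sets, and leaving out sets open to cross-hybridisation (_s_at and _x_at). The procedure was tested on simulated data. Array number limits the precision. Promoter and protein sequences were not analysed here. Figures used matplotlib 3.10.9 in Python 3.11.15.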

Additional observations from a re-analysis of the deposited data

How the results depend on the processing

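RBOHB kept its direction under all 12 alternatives counted for it, with the crossed block below among them. Of these only quantile normalization could have changed it, and there the log2 change was again -2.46. The others keep the same values or leave out 1 sample of groups that do not overlap, so their direction was fixed beforehand. Means of probe sets were not counted for RBOHB, which has 1 probe set. RBOHB passed the threshold under 7 of the 12: quantile normalization, the filter on dim probe sets, the variance trend, the robust prior, adjustment over 1 probe set per gene, leaving out cross-hybridising sets, and leaving out CO2 replicate 2. Leaving out 1 sample gave log2 changes of -3.04 to -1.89 for RBOHB, 0 to 1 RBOH probe sets called, 0 to 2477 of all probe sets (6583 with every sample) and 0 to 4 of the listed genes (13 with every sample); these fits hold fewer samples and assume that the lone one varies like the other group. The labels number the replicates 1 and 2 in both groups, and the numbers were not taken as pairs. Same-numbered samples had a correlation of deviations of -0.102, which with 2 samples per group cannot exclude pairing. With the replicate block RBOHB kept -2.46 (adjusted p = 0.0537, limma), 0 RBOH probe sets passed, and the calls were 1691 probe sets and 2 listed genes. The crossed block, added after seeing the data, gave 0 RBOH probe sets (log2 change again -2.46), 3478 of all and 7 listed genes. The cause of these losses was not tested. CEBIP passed under 6 alternatives, all but the fits with fewer samples, the blocks and the one without cross-hybridising sets. The calcium-dependent kinases called numbered 7 with adjustment over 1 probe set per gene and 2 without cross-hybridising sets, where CPK5 has none left. Counting the 4 actin genes left the calls at 13. Signal over background is not given in the table.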
